A study of Mus musculus with 8 samples.

Results

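The sterol and lipid synthesis genes described here are 36 genes of cholesterol synthesis, fatty acid synthesis and glycerolipid synthesis, with the regulators that control them. They were read by 87 of the 45101 probe sets on the array, namely all probe sets that the array's annotation pairs with 1 symbol and whose symbol is among the 36. In all, 18194 genes had such a probe set. A probe set is a group of short oligonucleotides that reads the 3' part of a transcript. By role the genes comprise 14 sterol enzymes, 5 regulators of the SREBP system, 5 genes of fatty acid synthesis, 7 of elongation and desaturation, and 5 of glycerolipid synthesis. The last 3 roles, with 17 genes, form the fatty acid and glycerolipid branch, which was set beside the sterol branch of 14 genes.

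Total RNA came from quadriceps, a large muscle of the thigh, of adult male C57Bl/10 mice. Hypoxia muscle (4 arrays) came from mice held for 2 weeks in a sealed chamber, where oxygen was lowered from 21% to 8% over the first week and held at 8% for 7 more days. Control muscle (4 arrays) came from mice under room conditions for the same 2 weeks, and no genotype or drug differs between the groups in the labels. Chamber housing and low oxygen cannot be told apart, and the labels do not say whether each array is a separate animal, so p-values measure only the spread between these samples.

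Cells make cholesterol from acetyl-CoA through mevalonate, farnesyl diphosphate, squalene and lanosterol. They make fatty acids from the same acetyl-CoA, then lengthen, desaturate and esterify them to glycerol phosphate, which gives triglycerides and membrane phospholipids. The SREBP transcription factors, held in the endoplasmic reticulum by Scap and the Insig proteins when sterols are plentiful, drive both routes, the Srebf1 product favouring fatty acid genes and the Srebf2 product sterol genes. Skeletal muscle makes little fat compared with liver and adipose tissue, and fat cells lie between its fibres.

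RNA quality was read from control probe sets at both ends of a transcript, whose 3'/5' quotient is higher when transcripts are broken or incompletely copied. For beta-actin this quotient ran from 1.40 to 2.53 in hypoxia and from 1.09 to 1.25 in control. For Gapdh it was 3.44 in hypoxia 1 and 0.776 to 0.874 on the other arrays. The main counts are therefore also given without hypoxia 1. The beta-actin quotient of the other hypoxia arrays, 1.40 to 1.59, still lay above every control array, so leaving out hypoxia 1 does not remove this difference. Muscle fibre markers were bright on every array, with a summed signal of 191946 to 248062 in hypoxia and 279096 to 342124 in control over 6 genes. Of these 5 fell in limma (83.3%) and none rose, against 18.8% and 14.8% of all genes tested. In bulk muscle fewer cells of a type and less RNA per cell cannot be told apart. The part of fibre content and RNA quality in the changes below was not tested.

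After hypoxia the largest falls among the tested genes were those of Gpd1, Scd1, Fdps and Fasn, and the largest rise was that of Fdft1. Of the 36 genes 35 passed the filter on dim probe sets, which lay at a signal of 90.2, and were tested on the brightest probe set of each gene. In the limma fit, with Benjamini-Hochberg adjustment over 13257 genes and a threshold of 0.05, 14 of the 35 fell and 2 rose. Across all genes tested 33.6% passed, with 18.8% lower and 14.8% higher. The ranges of the groups were apart in 16 of the 35 genes, against 33.4% of all genes. As shares of the 35 genes, 40% fell and 5.71% rose. The median change was -0.45 on the log2 scale for the 35 genes and -0.042 for all genes tested. Changes are hypoxia minus control, computed on log2(signal + 16), with standard errors (SE) from the fit. Without hypoxia 1, 15 fell and 2 rose.

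**Figure D1:**
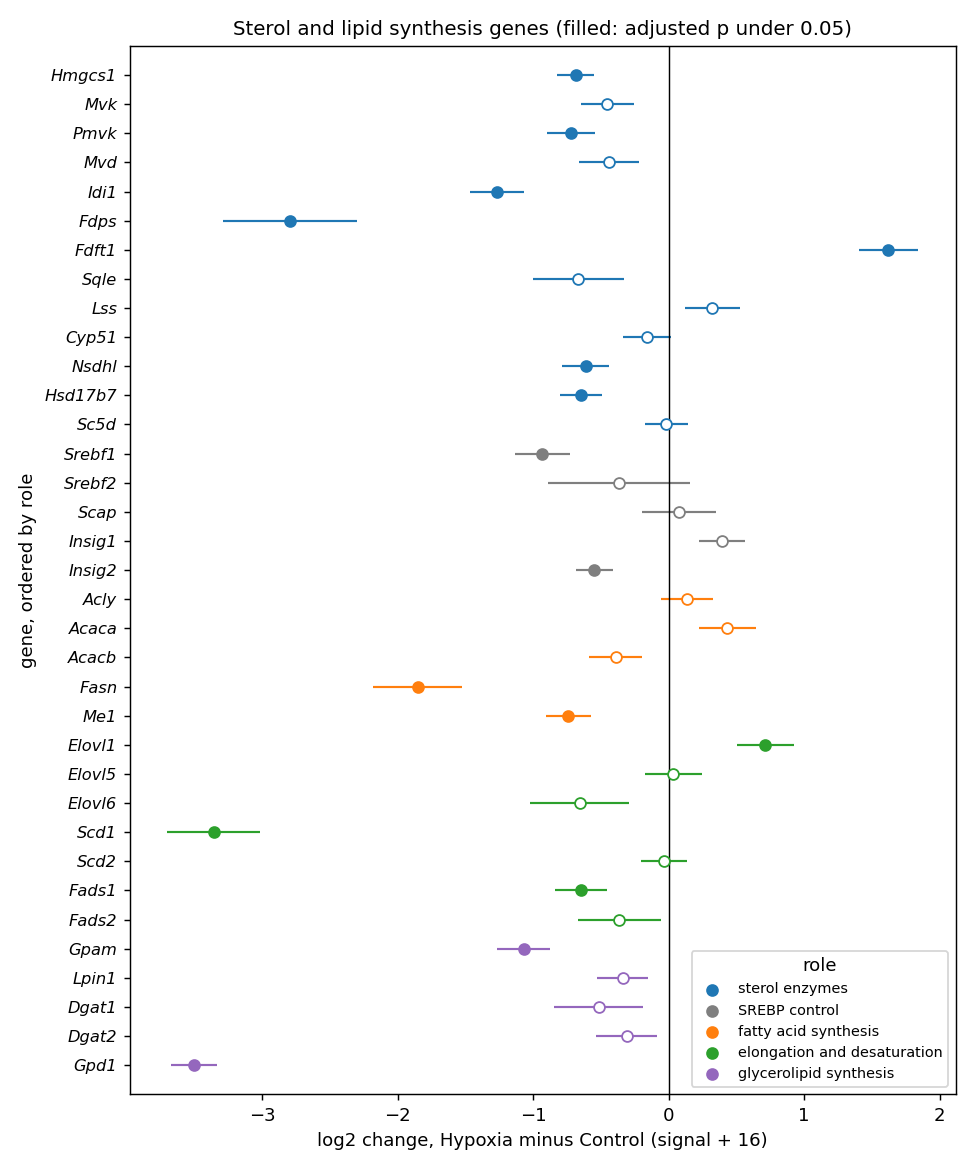
Log2 change, hypoxia minus control, of the 35 tested genes on the horizontal axis with SE bars, ordered by role, filled where the adjusted p passed 0.05. Gpd1 (-3.50), Scd1 (-3.36) and Fdps (-2.80) lie farthest left and Fdft1 (1.62) farthest right, on the opposite side from its neighbours in the sterol route.

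Of 13 tested sterol enzymes 6 fell, namely Hmgcs1, Pmvk, Idi1, Fdps, Nsdhl and Hsd17b7, and 1 rose, Fdft1. As shares, 46.2% fell and 7.69% rose, against 18.8% and 14.8% of all genes tested. The median change was -0.61, against -0.042 for all genes tested.

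Hmgcs1 encodes the cytosolic HMG-CoA synthase, which supplies the precursor of mevalonate. Its signal was 1982, 1768, 1566 and 1512 on the hypoxia arrays 1 to 4, against 2663, 2682, 2677 and 2952 on the control arrays 1 to 4. Every hypoxia value lay below every control value, and Hmgcs1 fell by 0.69 on the log2 scale (SE 0.14, adjusted p = 0.00198 by limma). Its 3 other probe sets past the filter changed by -0.23 to -0.43 and did not pass. Mvk and Pmvk encode the kinases that phosphorylate mevalonate in turn, and Mvd the decarboxylase that follows. Pmvk had 299 to 511 in hypoxia and 614 to 687 in control, and fell by 0.72 (adjusted p = 0.00687 by limma). Mvk changed by -0.45 and did not pass in limma (adjusted p = 0.0998), but passed without control 1 (-0.61, adjusted p = 0.0289). Mvd changed by -0.44 on its brightest probe set and 0.50 on the other, and neither passed.

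The isomerase and the prenyl synthase that follow were lower by more. Idi1, the isopentenyl diphosphate isomerase, had 261, 279, 334 and 308 in hypoxia against 744, 1046, 541 and 678 in control. The groups were well apart, and Idi1 fell 2.41-fold (log2 change -1.27, SE 0.20, adjusted p = 0.000374 by limma), with its second probe set at -1.05, also past the test. Fdps makes farnesyl diphosphate, the branch point to sterols, ubiquinone and prenylated proteins. Fdps had 14.8, 38.0, 78.5 and 173 in hypoxia against 238, 586, 607 and 706 in control. The spread within hypoxia was wide, but no value reached the lowest control array. Fdps fell by 2.80 (SE 0.50, adjusted p = 0.000850 by limma). Its mean signal in hypoxia, 76.0 ± 69.6 (SD, n = 4), lay below the filter signal of 90.2, so the size of this fall depends on the constant added before the logarithm.

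Fdft1, squalene synthase, commits farnesyl diphosphate to sterols and moved the other way. Its signal was 20015, 14684, 10643 and 10445 in hypoxia against 3273, 4163.7, 5212 and 5068 in control. All hypoxia arrays were above all control arrays, with hypoxia 1, the array with the highest 3'/5' quotients, the highest. Fdft1 rose 3.08-fold (log2 change 1.62, SE 0.22, adjusted p = 0.000110 by limma). A second probe set, without the suffix that marks probes able to bind related transcripts, rose by 1.58 (adjusted p = 2.67e-05 by limma over all probe sets). Without hypoxia 1 the change of Fdft1 was 1.43 (adjusted p = 0.000110). Its 2 remaining probe sets were below the filter, and 1 of them differed by -1.11.

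The enzymes from squalene onward gave a mixed picture. Sqle, the epoxidase, changed by -0.67, Lss, which closes the ring to lanosterol, by 0.32, and Cyp51, the lanosterol demethylase, by -0.16, and none of these passed. Without control 3 Sqle passed, at -0.96 (adjusted p = 0.0281 by limma). Nsdhl, which removes the methyl groups with other enzymes, had 310 to 482 in hypoxia and 568 to 621 in control and fell by 0.61 (adjusted p = 0.0150 by limma). Hsd17b7, the ketoreductase of that complex, had 443 to 533 in hypoxia and 669.6 to 883 in control and fell by 0.65 (adjusted p = 0.00593 by limma). The call of Hsd17b7 rests on a probe set whose suffix marks probes able to bind related transcripts, and its 3 others changed by -0.16 to -0.64 without passing. Sc5d, the desaturase near the end of the route, was at -0.018 on its brightest probe set, with 757 to 1076 in hypoxia and 819 to 1062 in control. A second Sc5d probe set had 68.7, 24.4, 147 and 140.4 in hypoxia against 454.5, 616, 503 and 642 in control, a log2 change of -2.55 (adjusted p = 0.000372 by limma over all probe sets). The probe sets of Sc5d thus differed in outcome, and its change is uncertain. Dhcr7, the last reductase, was below the filter and not tested, with 131, 32.3, 19.0 and 24.5 in hypoxia against 114, 216, 21.1 and 199 in control, so that its groups overlapped.

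**Figure D2:**
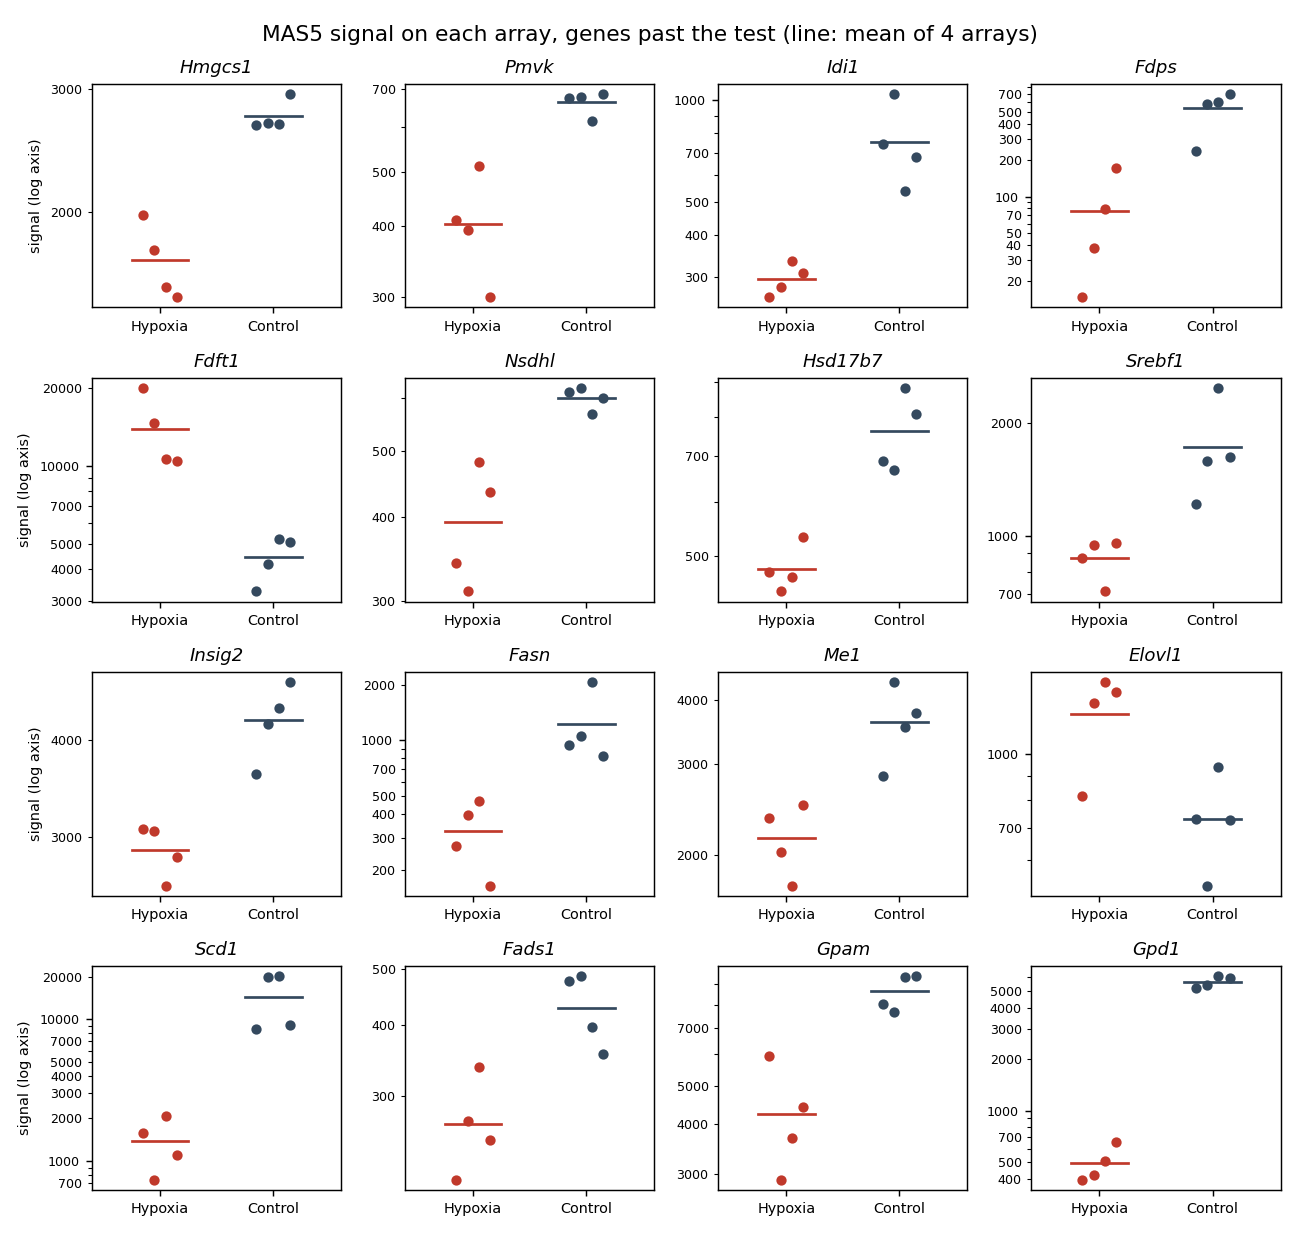
MAS5 signal (log axis) on each array for the 16 genes past the test, hypoxia to the left of control, with replicates 1 to 4 from left to right within a group and a line at the mean of 4 arrays. Groups are apart in every panel except Elovl1, where hypoxia 1 (816) lies below the highest control array (939).

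Promoter sequence was set beside these changes because the sterol and fatty acid genes are textbook SREBP targets. RefSeq windows of 250 bases before to 50 after a transcript start (GRCm38.p6) were matched by symbol for 27 of the 36 genes, 38 windows in all, among 32851 windows of the genome. No window was at hand for Fdft1, Fdps, Sqle, Fads1, Dgat1, Dgat2, Gpd1, Scd1 and Scd2. The motif counts therefore do not cover the largest falls, those of Gpd1, Scd1 and Fdps, or the rise of Fdft1. Letters were searched on both strands, so that ATTGG is CCAAT read on the other one. The sterol regulatory element TCACNCCAC was in 1 of the 38 windows, that of Hmgcs1, 137 bases before the start, and in 1.24% of all windows. CCAAT, the box of the SREBP partner NF-Y, was in 23 of 38 windows and in 37.4% of all. The E-box CACGTG was in 7 of 38 and in 7.15% of all, and ACGTG, the core of hypoxia response elements, which also lies within that E-box, was in 11 of 38 and in 19.6% of all. A match describes the letters in a window and is not a binding site. The 250 bases upstream of 4 starts are shown, 5' to 3' on the gene's strand, with every match of the 4 motifs in capitals: Hmgcs1 (chr13:119690101-119690350, plus strand) for its sterol element, Idi1 (chr13:8885356-8885605, plus) and Fasn (chr11:120824548-120824797, minus) as genes that fell, for their CCAAT matches, and Insig1 (chr5:28071162-28071411, plus), which did not fall, for its E-box and hypoxia core.
Hmgcs1: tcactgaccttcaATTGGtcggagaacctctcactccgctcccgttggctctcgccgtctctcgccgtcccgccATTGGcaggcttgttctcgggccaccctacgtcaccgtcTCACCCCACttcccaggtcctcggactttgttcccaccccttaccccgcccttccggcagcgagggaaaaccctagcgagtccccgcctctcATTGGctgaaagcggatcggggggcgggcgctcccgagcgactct
Idi1: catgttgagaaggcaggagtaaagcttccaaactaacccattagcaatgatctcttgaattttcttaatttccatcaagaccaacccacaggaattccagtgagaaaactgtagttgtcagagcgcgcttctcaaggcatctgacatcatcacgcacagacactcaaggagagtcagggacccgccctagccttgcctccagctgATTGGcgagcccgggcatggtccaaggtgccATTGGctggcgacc
Fasn: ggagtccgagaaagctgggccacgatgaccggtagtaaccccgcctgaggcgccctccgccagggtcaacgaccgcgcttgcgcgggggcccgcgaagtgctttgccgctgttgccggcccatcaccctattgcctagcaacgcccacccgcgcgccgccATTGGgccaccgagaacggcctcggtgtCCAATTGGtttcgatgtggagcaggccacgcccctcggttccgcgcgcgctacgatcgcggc
Insig1: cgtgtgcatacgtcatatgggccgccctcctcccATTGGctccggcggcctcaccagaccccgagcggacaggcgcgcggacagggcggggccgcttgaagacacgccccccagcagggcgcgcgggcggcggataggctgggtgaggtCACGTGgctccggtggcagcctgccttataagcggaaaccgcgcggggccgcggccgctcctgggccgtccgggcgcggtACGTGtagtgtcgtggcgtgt
Counts of CCAAT matches varied among genes of either outcome. The window of Mvk, which did not pass, held 5, while those of Pmvk, Me1 and Gpam, which fell, held 1 each. Other genes went the other way: Hmgcs1, Hsd17b7 and Nsdhl, which fell, had several matches, and Cyp51, Lss and Srebf2, which did not pass, had 1 each.

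Of the 5 regulators 2 fell, Srebf1 and Insig2, and the other 3 did not pass in the limma fit. The share that fell was 40%, against 18.8% of all genes tested. Srebf1 encodes the SREBP form tied to fatty acid genes. It had 874.5, 948, 711 and 957 in hypoxia against 1215, 1581, 2484 and 1621 in control. Srebf1 was lower on every hypoxia array and fell 1.91-fold (log2 change -0.93, SE 0.20, adjusted p = 0.00352 by limma). Control 3 was the highest array, and without it the change was -0.74 (adjusted p = 0.00912). Insig2, one of the 2 retention proteins, had 3074, 3050.0, 2599 and 2828 in hypoxia against 3615, 4188, 4400 and 4748 in control. Insig2 fell by 0.55 (SE 0.14, adjusted p = 0.00771 by limma), but did not pass after median centring of the arrays (adjusted p = 0.0543). Its 2 other probe sets changed by -0.26 and -0.36 and did not pass. Insig1, the other retention protein and an SREBP target itself, had 1150, 1055, 719.7 and 955 in hypoxia against 695, 743, 788 and 676 in control. Only hypoxia 3 fell within the control range, and the change of 0.39 (SE 0.17) did not pass (adjusted p = 0.0914 by limma). Insig1 passed without hypoxia 3 (0.53, adjusted p = 0.0203). Srebf2 had 50.6 on hypoxia 1 and 247 to 500.1 on the other hypoxia arrays, against 198 to 501 in control, and its change of -0.36 (SE 0.52) did not pass and was 0.27 without hypoxia 1. Scap, the escort protein, changed by 0.076 (SE 0.27).

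In fatty acid synthesis the synthase itself and the malic enzyme fell, while the genes that supply and carboxylate acetyl-CoA did not pass. Fasn, fatty acid synthase, had 270.4, 399, 474 and 166 in hypoxia against 942, 1059, 2063 and 823 in control. Every hypoxia array was lower, and Fasn fell 3.61-fold (log2 change -1.85, SE 0.33, adjusted p = 0.000799 by limma). Control 3 was again the highest, and the change without it was -1.57 (adjusted p = 0.00213). Me1, the cytosolic malic enzyme, which yields NADPH for lipid synthesis, had 1748 to 2499 in hypoxia and 2845 to 4324 in control. Me1 fell by 0.74 (SE 0.17, adjusted p = 0.00425 by limma), and its second probe set by 1.01. Acly, which makes cytosolic acetyl-CoA from citrate, changed by 0.13 (SE 0.19). Acaca and Acacb encode the acetyl-CoA carboxylases, Acacb being the form that controls entry of fatty acids into mitochondria. Acaca changed by 0.43 (SE 0.21, adjusted p = 0.130 by limma). Acacb changed by -0.39 (SE 0.20, adjusted p = 0.148 by limma) and passed without hypoxia 3, at -0.55 (adjusted p = 0.0309).

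Among the elongases and desaturases Scd1 had the largest fall. Scd1 is the main stearoyl-CoA desaturase of adipose tissue and liver, which makes oleate and palmitoleate. Its signal was 1567, 740.1, 2083 and 1113 in hypoxia against 8492, 19981, 20116 and 9090 in control. The lowest control array was above the highest hypoxia array by a wide margin, and Scd1 fell 10.2-fold (log2 change -3.36, SE 0.34, adjusted p = 1.23e-05 by limma). Its second probe set, dimmer at 124 to 158 in hypoxia and 203 to 552 in control, fell by 1.29, so both fell and the size is uncertain. Scd2, the form of brain and other tissues, had 1323 to 2062 in hypoxia and 1458 to 1749 in control on its brightest probe set, with a change of -0.034 (SE 0.17). Fads1, a front-end desaturase of polyunsaturated fatty acids, had 215, 271, 338 and 252 in hypoxia against 476, 486, 396 and 355 in control. Fads1 fell by 0.65 (SE 0.19, adjusted p = 0.0195 by limma). The call was lost without control 1 (adjusted p = 0.0564) or control 2 (adjusted p = 0.0620), and a dim second probe set was at 0.042. Fads2, its partner, changed by -0.36 without passing.

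Elovl1, an elongase of very long saturated chains, rose by 0.72 (SE 0.21, adjusted p = 0.0197 by limma), with 816, 1279, 1414 and 1346 in hypoxia against 729, 530, 939 and 728 in control. Hypoxia 1 lay within the control range. The call was lost without any of hypoxia 2, 3 and 4 or control 2, with adjusted p between 0.0504 and 0.0666. Both Elovl1 probe sets that rose can bind related transcripts, and the one without that suffix changed by 0.040. The rise of Elovl1 is therefore uncertain. Elovl5, an elongase of polyunsaturated chains, changed by 0.035 (SE 0.21), and Elovl6, which lengthens palmitate, by -0.66 (SE 0.36, adjusted p = 0.191 by limma).

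Of 5 glycerolipid genes 2 fell, Gpd1 and Gpam, and the other 3 did not pass. The share that fell was 40%, against 18.8% of all genes tested. Gpd1, the cytosolic glycerol phosphate dehydrogenase, makes the glycerol backbone from a glycolytic intermediate. Its signal was 394.5, 422, 506 and 652 in hypoxia against 5239, 5392, 6101 and 5955 in control. Both groups were tight, and Gpd1 fell 11.3-fold (log2 change -3.50, SE 0.17, adjusted p = 3.58e-08 by limma). Its other probe sets past the filter fell by 2.58 and 0.99, so all 3 fell and the size is uncertain. Gpam, the mitochondrial acyltransferase that starts glycerolipid assembly, had 5921, 2899, 3700.0 and 4410.3 in hypoxia against 8030.1, 7682, 9377 and 9427 in control. Gpam fell 2.10-fold (log2 change -1.07, SE 0.20, adjusted p = 0.00105 by limma), with its second probe set at -1.16, also past the test. Lpin1, the phosphatidate phosphatase of muscle and fat, had 14010 on hypoxia 1, above every control array, and 6988 to 9666 on the other hypoxia arrays, against 10991 to 13436 in control. Lpin1 changed by -0.34 with all arrays (adjusted p = 0.193 by limma) and by -0.52 without hypoxia 1 (adjusted p = 0.0134). Its second probe set fell by 0.42 (adjusted p = 0.0401 by limma over all probe sets). Dgat1 and Dgat2, which add the last acyl chain of triglycerides, changed by -0.52 (SE 0.33) and -0.31 (SE 0.23) and did not pass.

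Both branch means were lower on every hypoxia array than on any control array. Of the sterol enzymes 6 of 13 fell (46.2%) and 1 rose (7.69%), with a median of -0.61. Of the fatty acid and glycerolipid genes 6 of 17 fell (35.3%) and 1 rose (5.88%), with a median of -0.39. Across all genes tested 18.8% fell and 14.8% rose. As means of log2 values over the 13 sterol genes, the arrays averaged 8.94 ± 0.088 in hypoxia and 9.44 ± 0.11 in control (SD, n = 4 each). The 17 fatty acid and glycerolipid genes averaged 9.87 ± 0.20 in hypoxia and 10.61 ± 0.17 in control. The differences of these means were -0.50 for the sterol branch, -0.68 without Fdft1, and -0.73 for the other branch. The order of the branches thus depended on the summary: the sterol branch had the lower median and the fatty acid and glycerolipid branch the lower mean change, with Gpd1, Scd1 and Fasn as its lowest members. Without control 2 the order of the medians turned, at -0.44 for the sterol branch and -0.47 for the other. The sterol mean minus the lipid mean was -0.93 ± 0.16 in hypoxia and -1.17 ± 0.26 in control, with overlapping arrays. No p is given for these summaries, because the genes were chosen with earlier results known.

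**Figure D3:**
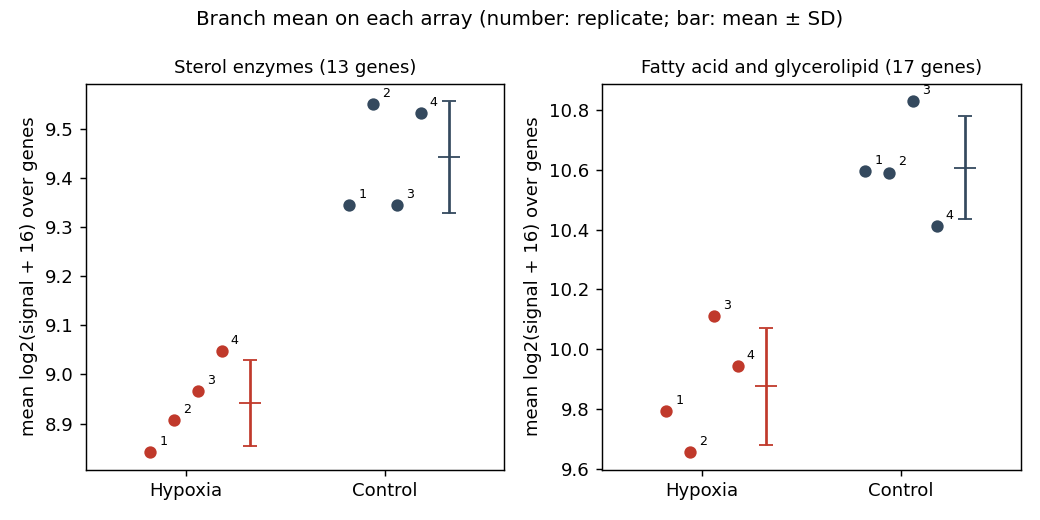
Mean log2(signal + 16) over the genes of a branch on each array, hypoxia to the left of control, numbered by replicate, with the mean ± SD of 4 arrays. In the sterol panel hypoxia lies between 8.84 and 9.05 and control between 9.34 and 9.55, and in the other panel hypoxia lies between 9.65 and 10.11 and control between 10.41 and 10.83.

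Probe sets of 1 gene did not always move alike. Of 74 probe sets past the filter 22 fell and 4 rose when each was tested on its own, against 16.4% and 12.5% of all 27022 probe sets (28.8% in either direction). Among 27 genes with several such probe sets, 10 held changes of both signs, but no gene had probe sets called in opposite directions. The widest spread was that of Sc5d, followed by Gpd1 and Scd1. Idi1, Fdft1, Me1, Scd1, Gpam and Gpd1 passed in 1 direction on every probe set past the filter that the gene had, with at least 2 each.

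**Figure D4:**
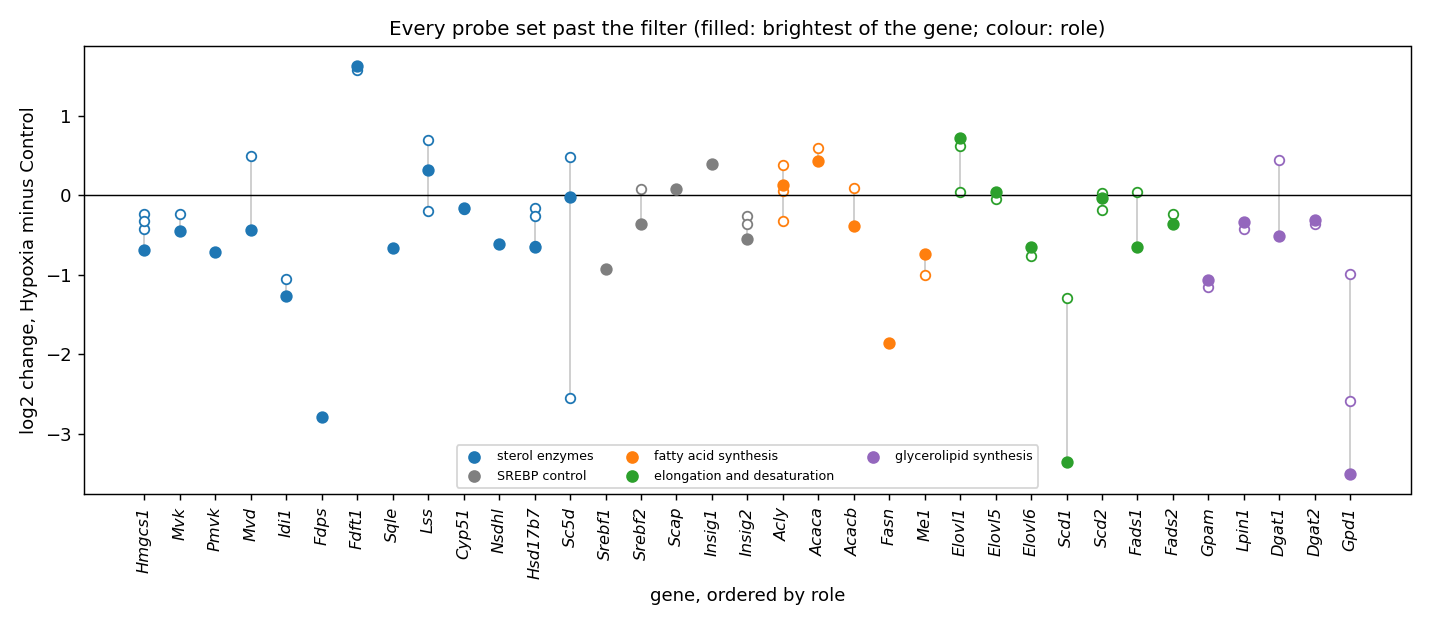
Log2 change, hypoxia minus control, of each of the 74 probe sets past the filter on the vertical axis, by gene, with the brightest filled and a grey line over the range. Sc5d spans -2.55 to 0.49 and Gpd1 -3.50 to -0.99, while the 2 probe sets of Fdft1 lie together at 1.58 and 1.62.

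Other genes of the same pathways were taken as whole lists, to be read beside the 18.8% of all genes that fell and 14.8% that rose. Of 5 tested sterol enzymes outside the 36, 2 fell (40%). Tm7sf2, a sterol reductase of the step after Cyp51, had 12.9 to 30.5 in hypoxia and 264 to 435 in control and fell by 3.44 (adjusted p = 1.02e-05 by limma). Its hypoxia values were below the filter signal. Msmo1, the methyl oxidase that works with Nsdhl, fell by 0.66 (adjusted p = 0.0251 by limma). Of 8 tested genes of sterol uptake, export and storage none fell and 4 rose (50%), with a median of 0.31. Abca1 and Abcg1, the cholesterol exporters, rose by 0.83 (adjusted p = 0.000899 by limma) and 1.02 (adjusted p = 0.0138). Mylip, the ligase that degrades the LDL receptor, rose by 0.81 (adjusted p = 0.00101), and Npc1, which moves cholesterol out of lysosomes, by 0.66 (adjusted p = 0.00369). Abca1, Abcg1 and Mylip are textbook targets of the sterol sensor LXR. Other genes also described as LXR targets went the other way. Srebf1 changed by -0.93, Fasn by -1.85, Scd1 by -3.36 and Mlxipl by -1.05, and all of these passed in limma. No list of LXR targets was drawn up, and LXR activity was not tested. The groups were apart for Abca1, Mylip and Npc1 and overlapped for Abcg1. Of 3 tested genes of SREBP processing and degradation, Rnf139, a ubiquitin ligase, fell by 0.45 (adjusted p = 0.0311 by limma).

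Of 17 other tested fatty acid genes 4 fell (23.5%) and 1 rose (5.88%), with a median of -0.14. The share that fell was near the 18.8% of all genes, and 14.8% of all genes rose. Mlxipl, the carbohydrate-sensing factor ChREBP, had 546 to 641 in hypoxia and 1176 to 1347 in control and fell by 1.05 (adjusted p = 8.51e-05 by limma). Thrsp, a lipogenic protein of fat and liver, fell by 0.99 (adjusted p = 0.0179), Slc25a1, the mitochondrial citrate carrier, by 1.10 (adjusted p = 0.0309), and Hacd1, a muscle dehydratase of chain elongation, by 0.58 (adjusted p = 0.0207). Pgd, a pentose phosphate enzyme that yields NADPH, was named after its value was seen as the 1 rise, at 0.47 (adjusted p = 0.0338). Of 27 other tested glycerolipid and phospholipid genes 9 fell (33.3%) and 5 rose (18.5%), with a median of -0.019. Gpd2, the mitochondrial partner of Gpd1 in the glycerol phosphate shuttle, had 807 to 1432 in hypoxia and 5806 to 6117 in control and fell by 2.35 (adjusted p = 8.58e-07 by limma). Cept1, a phospholipid synthase, fell by 1.23, and Crls1, cardiolipin synthase, by 0.83. Gpd1l, a second cytosolic glycerol phosphate dehydrogenase, rose by 0.51 (adjusted p = 0.0247 by limma), with 1110 to 1691 in hypoxia and 929 to 1086 in control, the direction opposite to Gpd1. Gpat3 and Gpat4, acyltransferases of the same first step as Gpam, were at -0.99 (adjusted p = 0.0232) and -0.58 (adjusted p = 0.111, not passed). Gpd1l, Gpat3 and Gpat4 were named after their values were seen. Agpat3, an acyltransferase of the next step after Gpam, rose by 1.29, with 2245 to 3517 in hypoxia and 1099 to 1326 in control.

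The tested adipocyte genes were also lower. Of 10 adipocyte markers 7 were measured and 5 tested, and all 5 (Adipoq, Cidec, Retn, Fabp4 and Lipe) fell in limma, with a median of -1.69. Lep and Pparg were measured but lay below the filter, and their groups overlapped. Lep had 11.1 to 81.4 in hypoxia and 24.5 to 251.8 in control. Pparg went the other way, with 205.6, 33.3, 111.4 and 248.4 in hypoxia against 33.6, 71.2, 133.1 and 36.1 in control. The summed signal over the 7 measured genes was 17695 to 27211 in hypoxia and 29723 to 62977 in control, highest on control 3. Fasn, Srebf1, Scd1, Gpd1 and Hsd17b7 were also highest on control 3, with Scd1 nearly as high on control 2. Gpd1 varied little among the control arrays, from 5239 to 6101. The other genes that fell were highest elsewhere: Idi1, Nsdhl, Me1 and Fads1 on control 2, and Hmgcs1, Pmvk, Fdps, Insig2 and Gpam on control 4. Fabp4 alone made up 68.4% to 93.3% of the summed signal. Without it the sum was 1182 to 4211 in hypoxia and 3428 to 19921 in control, so the groups overlapped, with hypoxia 4 above control 1. Adipoq, the hormone adiponectin, had 1331, 666, 1460 and 3000 in hypoxia against 2200, 8817, 14610 and 3811 in control. The part of fat cell content in the falls of Scd1, Fasn, Srebf1, Gpd1 and their relatives was not tested. Without control 3 the changes of Scd1, Gpd1, Fasn and Srebf1 were -3.16, -3.47, -1.57 and -0.74. Control 2, with Adipoq at 8817, remained in that fit. Of 3 tested brown adipocyte markers 1 fell, Cox8b, and none rose, with sums of 20769 to 28421 in hypoxia and 31626 to 40592 in control. Cox8b, a subunit of the respiratory chain, made up 98.0% to 99.4% of this sum, and without it the groups overlapped (181 to 416 in hypoxia, 225 to 643 in control). Over all arrays Cox8b ran from 20464 to 40271, within the range of the muscle fibre marker Mb, 17904 to 54941. The part of muscle fibres in the Cox8b signal was not tested. Ucp1, the defining marker of brown fat, was near the filter in both groups (38.5 to 136.5 in hypoxia, 57.0 to 186 in control). Of 5 tested Schwann cell markers 2 fell (40%) and none rose, with overlapping sums of 4602 to 7206 in hypoxia and 6622 to 9262 in control. Of 8 macrophage markers 1 rose (12.5%), Cd68 (3.93), and 2 fell (25%), Adgre1 and Csf1r. The macrophage sums overlapped, at 9337 to 16690 in hypoxia and 10109 to 15024 in control. Across all genes tested 18.8% fell and 14.8% rose.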

How the data were processed

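Expression was measured on 8 Affymetrix mouse arrays, 1 per sample. The authors deposited linear signal intensity per probe set, made with MAS5 per the submitters' processing notes, and every array had the same trimmed mean, so the authors' scaling was kept. The MAS5 version is not given in the sources at hand. Groups came from the sample titles. No 2 arrays held identical values.

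Signals were transformed here as log2(signal + 16), which understates the fold of dim genes. Control probe sets (64) and the 40% of probe sets with the lowest mean were left out, leaving 27022, of which 22840 had 1 symbol. Symbols were updated through gene identifiers to GRCm38.p6, and the brightest probe set over all arrays stood for each of 13257 genes. Hypoxia was compared with control by limma 3.58.1 in R 4.3.3 (lmFit, eBayes with intensity trend, two-sided, no block), adjusted by Benjamini-Hochberg with a threshold of 0.05, and tested on simulated data. The number of arrays limits the precision.

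All members are named. Of each other pathway list, up to 4 passing genes with the smallest p are named, and markers are given as lists. Members and lists were chosen with earlier results of these data known. Alternatives varied scaling, pseudocount (1, 64), filter (none, 60%), probe set choice, eBayes settings, array weights, a replicate block and each array left out. Promoters came from RefSeq.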

Additional observations from a re-analysis of the deposited data

Results flagged for a closer look

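In 78 groups of 4 arrays (both groups of the 36 genes and of 3 means, for the 2 branches and the regulators, all on the log2 scale), 2 had an array whose gap to its nearest neighbour, as a share of the group's range, was above Dixon's 95% critical value, which chance exceeds in about 5% of groups. The Hmgcs1 signal of control 4 was 2951.8, against 2663 to 2682 on the other control arrays. The Pmvk signal of control 3 was 614.4, against 676 to 687 on the others. Both genes passed the limma test without those arrays, with adjusted p of 0.00885 for Hmgcs1 and 0.0134 for Pmvk.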

How the results depend on the processing

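All 16 called genes kept their sign under every alternative, and 12 also kept the call under every alternative that tested them. The exceptions were Elovl1, Fads1, Hsd17b7 and Insig2. Of the 19 tested genes not called, 13 were called under no alternative, and Sc5d was called on averaged probe sets (-0.69, adjusted p = 0.0217 by limma). The counts of genes called, 16 in all and 14 lower, stayed within 1.5 times, from 14 to 17 and from 13 to 15 when 1 array was left out. The count of rises was 1 when probe sets of a gene were averaged, and 1 on probe sets without the suffix of possible cross-binding (an alternative chosen after the data were seen), and 1 to 2 when 1 array was left out. The sterol median was -0.48 after quantile normalization, -0.43 on the mean of probe sets, -0.45 without suffixed probe sets, and -0.64 to -0.44 when 1 array was left out, where the fatty acid and glycerolipid median was -0.55 to -0.30. The cause was not tested. Only genes that had not passed turned sign: Mvd was at 0.031 on the mean of probe sets and 0.50 without suffixed ones, Lss at -0.20 and Dgat1 at 0.45 without suffixed ones. Sc5d was at 0.080 after quantile normalization, 0.064 after median centring, 0.024 with array weights and -0.090 to 0.085 when 1 array was left out. Elovl5 was at -0.0078 on the mean of probe sets, -0.050 without suffixed ones and -0.076 to 0.20 when 1 array was left out, and Scd2 at 0.048 after median centring and -0.16 to 0.053 when 1 array was left out. Leaving out 1 array gave -0.71 to 0.27 for Srebf2, -0.20 to 0.24 for Scap and -0.017 to 0.27 for Acly. All genes split 50.7% higher among calls after median centring, against 44.0% as deposited. Replicate numbers did not pair the arrays (r between -0.075 and 0.0024 for same-numbered arrays), and with the replicate block 16 genes were again called, with 23 probe sets in place of 26. Dim genes such as Fdps and Dhcr7 were limited by signal near background.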
